A study of Mus musculus with 40 samples.

Results

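The genes described here are 41 mouse genes of the hypoxia response and of glycolysis, chosen by symbol from the 23480 genes in each of the deposited tables. They are 22 glycolytic enzymes, transporters and regulators, and 19 other targets or components of the hypoxia-inducible factor (HIF) pathway. All 41 symbols were listed in both tables. Abundance was enough for a test of 35 of them in the Slpi table and of 34 in the Mgp table.

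The libraries are RNA sequencing profiles of 4T1, a mouse mammary carcinoma line, each infected with 1 of 10 short hairpin RNAs (shRNAs), which a cell processes into small RNAs that lower the mRNAs they pair with. In the Slpi table hairpin 66708 stood against Slpi1U1, Slpi1U2, Slpi2 and Slpi4, and in the Mgp table hairpin 88943 stood against Mgp1, Mgp1U1, Mgp1U3 and Mgp2. Every line had 2 libraries and was grown in the same rich, high-glucose medium. The study asked whether hairpins of the TRC collection disturb the transcriptome more than designs of the shERWOOD algorithm housed in a microRNA scaffold.

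Cells with 66708 and 88943 were selected with puromycin, and the other 8 lines with hygromycin. The design gives each target gene a TRC hairpin without naming it: 66708 and 88943 were taken as TRC hairpins from their catalogue-style numbers and their drug, and the other 8 as shERWOOD designs. Source, scaffold and drug therefore cannot be told apart, and no line without a hairpin was analysed here. The labels do not say whether the libraries of a line came from separate infections, nor at which oxygen level the cells grew.

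A gene's level in a library is given as CPM, its reads over all counted reads of that library on the usual CPM scale, divided by kilobases of exon where stated. Differences are on the deposited log2-like scale, always a TRC line minus the mean of its 4 shERWOOD lines. That scale compresses low values: a doubling from 100 scaled reads is a difference of 0.36 for the Slpi data and 0.34 for the Mgp data, and one from 1000 is 0.77 and 0.75. A fold is the ratio of scaled reads, and a gene was called at a Benjamini-Hochberg adjusted p under 0.05 in limma's moderated test. Fewer cells with a transcript and less transcript per cell cannot be told apart in such bulk samples.

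Libraries held 12176854 to 28533761 reads (Slpi table) or 12082237 to 23307340 reads (Mgp table). The deposited scaling gave the 66708 libraries 17.5 and 17.4 M scaled reads, against 16.1 to 16.6 M in their shERWOOD lines, and the 88943 libraries 16.3 and 16.2 M, against 17.7 to 18.2 M. A CPM therefore reads slightly low for 66708 and slightly high for 88943 beside the deposited scale. Overlap between a TRC line and its shERWOOD lines was judged on CPM, and its share over all genes is not given. Gpi1, for example, lay below the shERWOOD range in 66708 and above it in 88943. Its differences there were −0.02 and 0.03, and neither was called. Each TRC line held more of the gene its table is named for than the shERWOOD lines beside it. Slpi averaged 151 CPM in 66708, against 48.2 to 60.9 CPM in the Slpi-directed shERWOOD lines, and Mgp 15.8 CPM in 88943, against 1.15 to 8.32 CPM in the Mgp-directed ones. In the lines of the other table Slpi averaged 140 CPM in 88943 and 453 to 586 CPM in the Mgp-directed lines, and Mgp 105 CPM in 66708 and 15.4 to 29.9 CPM in the Slpi-directed lines, so with no hairpin-free line the knockdown by 66708 or 88943 was not measured. The carcinoma markers Cdh1, Krt8 and Krt18 lay between 338 and 890 CPM in every library, while Ptprc, Emr1, Cd3e, Pecam1, Cdh5, Pdgfrb, Dcn and Col1a1 of other cell types stayed at or under 0.750 CPM. Pdgfra at 24.6 to 57.3 CPM and Cd68 at 3.33 to 8.17 CPM were the exceptions. The other carcinoma markers were lower, with Krt7 at 155 to 320 CPM, Epcam at 53.4 to 181 CPM and Krt19 at 33.15 to 89.2 CPM. Krt14 at 8.19 to 33.2 CPM and Cldn4 at 6.50 to 34.4 CPM were lowest and reached below the range of Pdgfra.

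Under normal oxygen, prolyl hydroxylases of the Egln family mark the HIF alpha subunits Hif1a and Epas1 for destruction through the von Hippel-Lindau ubiquitin ligase. When oxygen falls, the alpha subunits persist, pair with Arnt and bind short DNA elements with the core ACGTG or GCGTG near their targets. Targets take up glucose, run glycolysis to lactate, hold pyruvate back from mitochondria, export acid, draw in vessels and remove mitochondria. Many tumour lines express part of this programme in ordinary culture.

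Because HIF binds these cores, the 250 bases before the start of transcription were searched for both, on both strands. RefSeq promoter windows (GRCm38.p6) existed for 36 of the 41 genes; Slc2a3, Epas1, Bnip3l, Ndrg1 and Ero1l had none. Of those 36, 27 (75.0%) held at least 1 core, against 38.6% of the 27025 promoters of all genes. By class it was 15 of 21 glycolytic genes (71.4%) and 12 of 15 others (80.0%). ACGTG was in 17 of the 36 windows (47.2%), against 16.5% of all, and GCGTG in 18 of the 36, against 28.3%. Such matches are descriptions of letters, and many promoters that hold them have no known link to HIF.

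The following windows belong to the 3 genes of each class whose differences in the 2 TRC lines lay farthest apart, among genes with a window. Letters in capitals are ACGTG or GCGTG or their reverse complements, and all 6 run 5′ to 3′ on the gene's own strand, ending at the base before the start. They lie at chr3:104638414-104638663 (plus strand, Slc16a1), chr6:124769674-124769923 (minus, Eno2), chr11:78322823-78323072 (plus, Aldoc), chr4:43506776-43507025 (plus, Car9), chr17:46032378-46032627 (minus, Vegfa) and chr19:53310256-53310505 (plus, Mxi1) of GRCm38.p6.
Slc16a1: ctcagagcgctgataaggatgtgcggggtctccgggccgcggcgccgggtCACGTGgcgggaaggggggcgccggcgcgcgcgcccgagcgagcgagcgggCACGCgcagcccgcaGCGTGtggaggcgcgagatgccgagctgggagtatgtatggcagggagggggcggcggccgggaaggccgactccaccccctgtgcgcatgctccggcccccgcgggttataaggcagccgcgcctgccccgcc
Eno2: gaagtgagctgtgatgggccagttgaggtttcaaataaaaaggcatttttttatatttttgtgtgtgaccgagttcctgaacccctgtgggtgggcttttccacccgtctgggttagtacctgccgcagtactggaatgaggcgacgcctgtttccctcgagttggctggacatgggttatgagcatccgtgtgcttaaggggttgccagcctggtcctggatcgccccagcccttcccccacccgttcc
Aldoc: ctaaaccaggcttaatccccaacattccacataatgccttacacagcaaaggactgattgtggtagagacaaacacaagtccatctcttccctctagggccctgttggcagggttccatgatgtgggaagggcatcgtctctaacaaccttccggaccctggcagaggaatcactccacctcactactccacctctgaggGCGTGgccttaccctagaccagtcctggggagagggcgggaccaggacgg
Car9: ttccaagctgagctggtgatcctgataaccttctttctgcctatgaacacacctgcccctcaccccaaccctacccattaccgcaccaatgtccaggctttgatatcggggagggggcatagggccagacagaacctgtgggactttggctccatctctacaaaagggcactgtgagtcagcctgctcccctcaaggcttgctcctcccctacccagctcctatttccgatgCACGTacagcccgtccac
Vegfa: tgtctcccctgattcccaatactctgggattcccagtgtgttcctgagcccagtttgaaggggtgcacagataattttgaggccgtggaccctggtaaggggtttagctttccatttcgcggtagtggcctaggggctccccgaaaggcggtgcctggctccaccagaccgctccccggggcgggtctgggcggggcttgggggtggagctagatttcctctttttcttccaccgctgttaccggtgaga
Mxi1: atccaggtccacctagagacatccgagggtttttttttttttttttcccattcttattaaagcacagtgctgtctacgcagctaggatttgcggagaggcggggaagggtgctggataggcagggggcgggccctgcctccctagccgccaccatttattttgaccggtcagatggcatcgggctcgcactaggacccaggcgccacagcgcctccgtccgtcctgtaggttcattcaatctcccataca
The Car9 window holds a single core that starts 18 bases before the start, read on the other strand, and the Aldoc window a single GCGTG at 50 bases. Slc16a1 has 4 matches, of which the ACGTG pair at 200 and 199 bases is 1 palindrome, CACGTG, read on both strands; this palindrome is also the E-box of other transcription factors. In the windows of Eno2, Vegfa and Mxi1 these letters do not occur.

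Within the glycolytic class levels were compared by the median CPM per kilobase over all 20 libraries. Ldha, which reduces pyruvate to lactate, was highest among the rows of the class, at 695 CPM per kilobase. The mutase Pgam1 followed at 454, the pyruvate kinase Pkm at 317, the aldolase Aldoa at 273 and the phosphoglycerate kinase Pgk1 at 193. Triose phosphate isomerase, Tpi1, stood at 109, the glucose transporter Slc2a1 at 86.2, the lactate and proton carrier Slc16a1 at 68.7 and Gapdh at 61.2 CPM per kilobase. The phosphofructokinases were ordered Pfkl at 26.8, Pfkp at 7.35 and Pfkm at 3.75, and hexokinase was shared by Hk2 at 16.3 and Hk1 at 9.07. Isomerase Gpi1 stood at 26.2, between them. These orders were not tested. Alpha-enolase has no place in them, because its reads cannot be told apart from those of the copy Gm5506. That row stood at 733 CPM per kilobase, above Ldha.

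Several isoforms that other tissues use under hypoxia were nearly silent. The transporter Slc2a3 reached at most 2.79 CPM, and the lactate exporter Slc16a3 at most 0.621 CPM in any library. For the alpha subunits, Hif1a stood at 361 to 445 CPM, while Epas1 ranged from 0 to 0.223 CPM, so at this depth the HIF alpha transcript was almost all Hif1a. Pfkfb4, a regulator of phosphofructokinase, at 2.07 to 6.48 CPM and Ankrd37, a HIF target of little-known function, at 3.79 to 8.31 CPM were also under the minimum in both tables. In the fit without a minimum Pfkfb4 rose by 0.21 in 88943, with 6.48 and 4.21 CPM in 88943, against 2.07 to 3.35 CPM (limma, adjusted p = 0.00278). Slc2a3 fell by 0.12 there in the same fit (limma, adjusted p = 0.0272), with libraries that overlapped. Adrenomedullin, Adm, a vasodilator peptide, was under the minimum in the Mgp table only.

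Counts of 2 enzymes are uncertain because near-identical copies share their reads, a point noticed after the values were seen. The alpha-enolase row, Eno1, held only 4.30 to 8.28 CPM, while the row Gm5506, which RefSeq lists as a synonym of the retrogene Eno1b, held 1140 to 1623 CPM. Reads of Eno1 and its copy cannot be told apart here, so no change of alpha-enolase is given. Aldoa at 668 to 969 CPM had copies named Aldoart1 and Aldoart2 at 103 to 150 and 27.9 to 44.6 CPM, and pseudogenes of Gapdh and other abundant enzymes may likewise take or lend reads.

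The comparison of 66708 with the 4 Slpi-directed shERWOOD lines asked whether these genes took part in the distinct profile of the TRC hairpin. They did so mostly downward. Of 35 tested members, 22 fell in 66708 and 3 rose, where 23.6% of all genes tested fell and 32.1% rose. The median log2 difference was −0.18 over the members and 0.02 over all genes. HIF targets outside glycolysis fell most: 13 of 17 fell and only Hif1a rose, with a median of −0.42. Among the glycolytic genes 9 of 18 fell and 2 rose, with a median of −0.11. These counts include Adm and Eno2, which passed the minimum only through the shERWOOD lines; without them 20 of 33 fell and 3 rose, with 12 of 16 falling outside glycolysis and 8 of 17 in it.

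**Figure D1:**
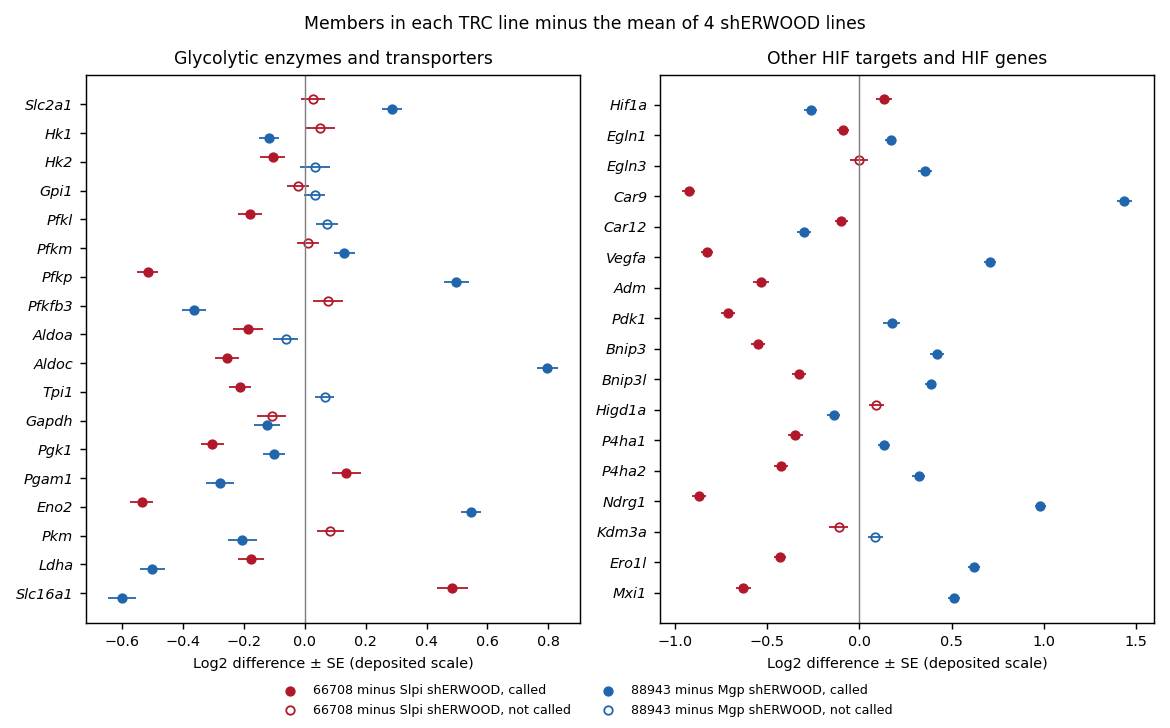
Log2 difference (points) with its standard error (bars) of each tested gene in 66708 (red) and 88943 (blue), each minus the mean of its 4 shERWOOD lines; filled points were called and open ones were not. Car9, Ndrg1 and Vegfa lie at −0.92, −0.87 and −0.83 in 66708 and at 1.43, 0.98 and 0.71 in 88943, while Ldha lies left of 0 in both.

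Car9, a membrane carbonic anhydrase that disposes of acid and a classic HIF target, gave the largest difference on the deposited scale, though the scaled-read folds of Vegfa, Eno2 and Adm were larger. It had 48.6 and 44.3 CPM in the 66708 libraries, against 102 to 131 CPM (median 116) in the 8 shERWOOD libraries, with no overlap. This was a 2.36-fold fall (log2 difference −0.92 ± 0.04, SE; limma, adjusted p = 6.053e-11). Car12, the related carbonic anhydrase, fell by only 0.10 on the log2 scale (86.2 and 89.4 CPM in 66708, against 96.7 to 114 CPM). With the first or the second 66708 library left out its difference was −0.08 or −0.12 and was not called (limma, adjusted p = 0.204 and 0.0649).

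Ndrg1, a differentiation and stress gene induced by low oxygen, had 155 and 162 CPM in 66708, against 301 to 411 CPM (median 312) in the shERWOOD libraries. Its difference was −0.87 ± 0.04 (SE; 1.97-fold, limma, adjusted p = 1.460e-10). Vegfa, the main growth factor for blood vessels, had 16.5 CPM in both 66708 libraries, against 40.6 to 57.9 CPM (median 47.0), a 2.73-fold fall (−0.83 ± 0.03, SE; limma, adjusted p = 1.046e-10). Both genes thus lay wholly below their shERWOOD range. The other secreted factor, Adm, had 2.56 and 2.28 CPM in 66708, against 7.95 to 12.3 CPM. It passed the minimum only through the shERWOOD lines, so its fall of 0.53 on the log2 scale is given as a description.

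The mitochondrial targets fell too. Pdk1, the kinase that switches off pyruvate dehydrogenase, had 65.5 and 64.7 CPM in 66708, against 122 to 138 CPM (median 129), with a difference of −0.71 ± 0.04 (SE; 1.88-fold, limma, adjusted p = 1.034e-09). Bnip3, a receptor for mitochondrial autophagy, had 41.8 and 41.3 CPM in 66708, against 70.2 to 79.0 CPM (median 76.2; −0.55 ± 0.04, SE). Its relative Bnip3l had 195 and 206 CPM in 66708, against 261 to 294 CPM (−0.33). Higd1a, a small protein of the respiratory chain, stood at 41.7 and 42.6 CPM in 66708, against 35.7 to 47.8 CPM, and was not called (limma, adjusted p = 0.0682).

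Mxi1, a Myc antagonist, had 42.1 and 45.2 CPM in 66708, against 78.0 to 93.8 CPM (median 86.3), a difference of −0.63 ± 0.04 (SE; 1.84-fold, limma, adjusted p = 1.490e-08). Collagen prolyl hydroxylases P4ha1 and P4ha2, which stabilise collagen, fell by 0.35 and 0.42. Ero1l, an oxidase that helps to form disulfides in the endoplasmic reticulum, fell by 0.43. All 3 lay below the shERWOOD range in both 66708 libraries. The histone demethylase Kdm3a had 91.9 and 105 CPM in 66708, against 99.4 to 131 CPM, and was not called as deposited (limma, adjusted p = 0.0846), though it was called lower with equal library totals (0.00923). Ankrd37, seen only in the fit without a minimum, was −0.20 ± 0.03 (SE; limma, adjusted p = 0.0023), with 4.75 and 3.79 CPM in 66708, against 6.09 to 8.31 CPM. In that fit, over all 41 members, 22 fell and 2 rose, where 13.2% and 14.4% of 21107 genes did. Only 9489 of those genes passed the minimum, against 35 of the 41 members, so these shares are no like background.

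The upstream genes moved little. Hif1a had 386 and 430 CPM in 66708, against 369 to 427 CPM (median 387), so the groups overlapped, and its call as higher (0.13 ± 0.04, SE; limma, adjusted p = 0.0146) was lost without the second 66708 library (0.335), with quantile normalization (0.189) and with equal library totals (0.328). The oxygen sensor Egln1 had 128 and 127 CPM in 66708, against 143 to 149 CPM, a difference of −0.09 (limma, adjusted p = 0.0365). With the first or the second 66708 library left out it was −0.09 or −0.08 and was not called (0.130 and 0.171). Egln3, a sensor that is itself a HIF target, had 124 and 121 CPM in 66708, against 117 to 143 CPM, and was not called (limma, adjusted p = 0.988). Epas1 had 0.0754 and 0 CPM in 66708, against 0 to 0.223 CPM.

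**Figure D2:**
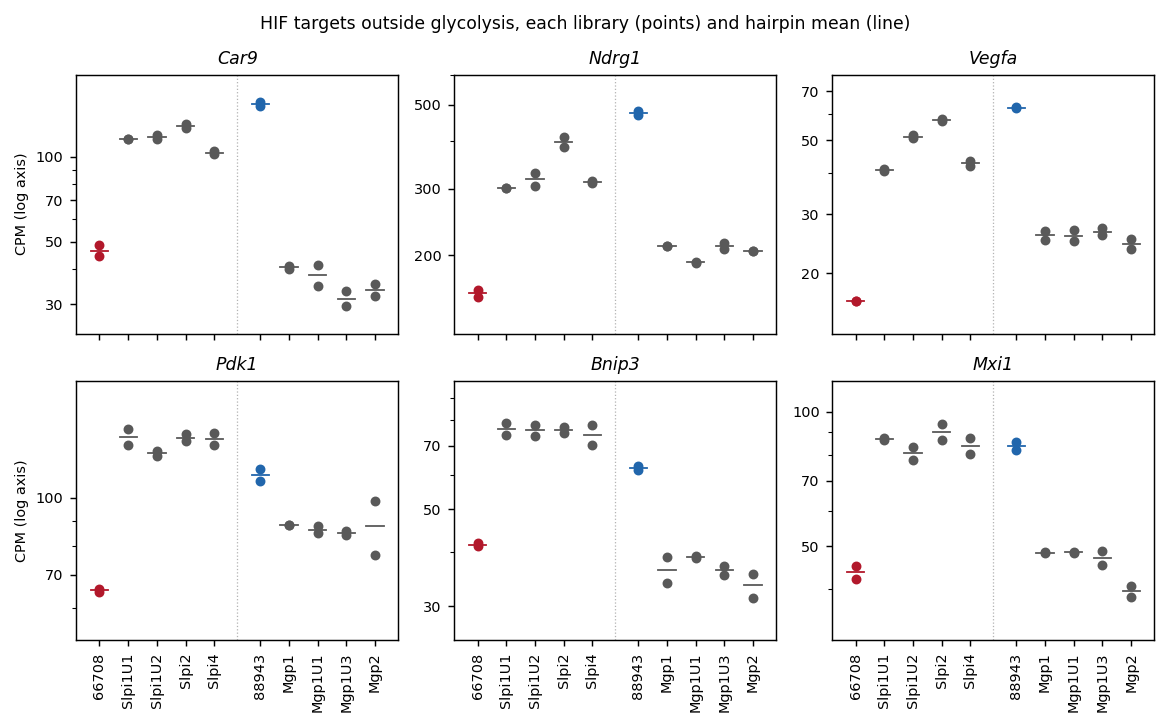
CPM on a log axis of 6 HIF targets outside glycolysis in every library (points) of the 10 lines, with the mean of each line (short bar); TRC lines are in red (66708) and blue (88943), and a dotted line parts the tables. Both 66708 points lie below the 8 grey points left of the dotted line and both 88943 points above the 8 grey points right of it in all 6 panels. The 6 are the called genes of this class with the largest differences in 66708, so their separation there is no separate support. The share of all genes so separated is not given.

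In glycolysis the falls in 66708 were uneven. Eno2, the neuronal-type enolase, had 7.09 and 6.10 CPM in 66708, against 15.1 to 20.6 CPM (median 17.5). Its 66708 level was under the minimum, so the 2.54-fold difference (−0.54 ± 0.04, SE) is given as a description. Pfkp, the platelet-type phosphofructokinase, had 73.3 and 74.0 CPM in 66708, against 114 to 132 CPM (median 124; −0.52 ± 0.03, SE; limma, adjusted p = 1.885e-08). Both were clear of their shERWOOD range. Pgk1 had 392 and 375 CPM in 66708, against 486 to 558 CPM (median 505; −0.30 ± 0.04, SE). Aldoc, the brain-type aldolase, had 10.9 and 12.4 CPM in 66708, against 15.9 to 21.4 CPM (median 17.8; −0.26 ± 0.04, SE). Tpi1 had 298 and 285 CPM in 66708, against 337 to 383 CPM (median 370; −0.21 ± 0.04, SE). None of these 3 overlapped its shERWOOD range.

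Slc16a1 went the other way. It had 339 and 370 CPM in 66708, against 230 to 308 CPM (median 257), a 1.44-fold rise (0.49 ± 0.05, SE; limma, adjusted p = 1.978e-06). Pgam1 was called higher too (0.14 ± 0.05, SE; limma, adjusted p = 0.0237), but its 938 and 911 CPM in 66708 overlapped the 796 to 941 CPM of the shERWOOD libraries. In limma that call was lost without either 66708 library (adjusted p = 0.191 and 0.0618), with library medians set equal (0.0551), with quantile normalization (0.396) and with equal library totals (0.381).

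The abundant enzymes shifted by small amounts. Ldha had 1933 and 1968 CPM in 66708, against 2132 to 2638 CPM (median 2348; −0.18 ± 0.04, SE; limma, adjusted p = 0.0028), and was not called with hairpin means as samples (0.161). Pfkl and Aldoa fell by 0.18 and 0.19 but were not called without the second 66708 library (limma, adjusted p = 0.0944 and 0.206). Hk2, the inducible hexokinase, had 88.9 and 82.0 CPM in 66708, against 89.0 to 110 CPM (median 99.5). Its difference of −0.11 (limma, adjusted p = 0.0423) was not called without the second 66708 library (−0.06, 0.416) and without 5 of the shERWOOD libraries (0.0502 to 0.0789). Slc2a1 had 310 and 294 CPM in 66708, against 302 to 327 CPM (median 316), and was not called (0.03 ± 0.04, SE; limma, adjusted p = 0.568). Hk1, Gpi1, Pfkm, Pfkfb3, Gapdh and Pkm were not called either, at −0.11 to 0.08.

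The same comparison of 88943 with the 4 Mgp-directed shERWOOD lines gave the opposite picture for the HIF targets. Of 34 tested members 17 rose in 88943 and 11 fell, where 28.7% of all genes tested rose and 42.0% fell. Among the genes outside glycolysis 12 of 16 rose and 3 fell (Hif1a, Car12 and Higd1a), with a median of 0.34. In the glycolytic class 5 of 18 rose and 8 fell, with a median of −0.02, close to the −0.04 of all genes. The glycolytic count includes Aldoc and Eno2, which passed the minimum only through 88943; without them 3 of 16 rose and 8 fell, with a median of −0.08, and over all members 15 of 32 rose. In the fit without a minimum, over all 41 members, 19 rose and 13 fell, where 22.2% and 21.3% of 19354 genes did. Only 9174 of those genes passed the minimum, against 34 of the 41 members. These shares therefore include many scarce genes and are no like background, and in the main fit the members fell less often than all genes.

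The direction of the glycolytic class depended on scaling. With equal library totals, a setting added after the data were seen, 9 of its 18 genes rose in 88943 and 4 fell, and with quantile normalization 11 rose and 3 fell. For the other HIF targets the same settings left 13 rising and 2 falling, and 13 rising and 3 falling. Over all genes the share of calls that were higher moved with the scaling too. In 88943 it was 59.6% of 6530 calls with equal library totals and 48.4% with quantile normalization, against 40.6% as deposited. In 66708 it was 37.7% of 5258 calls with equal library totals, against 57.6% as deposited. With equal library totals 11 glycolytic genes fell and 1 rose in 66708, and 14 others fell and none rose (3 were not called). These counts include Aldoc and Eno2 in 88943 and Adm and Eno2 in 66708. All of these passed the minimum only through the group where they were high, and no counts without them are given for these settings.

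Car9 again had the largest difference on the deposited scale. It had 152 and 157 CPM in 88943, against 29.4 to 41.2 CPM (median 35.1) in the 8 shERWOOD libraries, a 3.92-fold rise (1.43 ± 0.04, SE; limma, adjusted p = 1.480e-13). Ndrg1 had 469 and 481 CPM in 88943, against 190 to 216 CPM (median 206.5), a 2.11-fold rise (0.98 ± 0.03, SE; limma, adjusted p = 4.243e-13). Vegfa had 62.8 and 62.3 CPM in 88943, against 23.6 to 27.3 CPM (median 25.7; 0.71 ± 0.03, SE; 2.21-fold). All 3 lay far above every shERWOOD library of the table. Adm, under the minimum here, had 6.79 and 8.37 CPM in 88943, against 3.55 to 6.66 CPM, and was not called in the fit without a minimum (limma, adjusted p = 0.165).

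Ero1l had 324 and 326 CPM in 88943, against 172 to 190 CPM (median 182; 0.62 ± 0.03, SE; limma, adjusted p = 1.487e-10). Mxi1 had 82.1 and 85.5 CPM in 88943, against 38.5 to 48.7 CPM (median 48.2; 0.51 ± 0.03, SE). Bnip3 had 61.7 and 62.9 CPM in 88943, against 31.4 to 39.2 CPM (median 36.3; 0.42 ± 0.04, SE). These 3 were clear of the shERWOOD range, as were Bnip3l (0.39) and P4ha2 (0.32). Pdk1 rose by much less, 0.17 ± 0.05 (SE; limma, adjusted p = 0.00409), with 108 and 114 CPM in 88943, against 76.8 to 98.4 CPM (median 86.8). Its call and that of P4ha1 (0.13) were lost without the second 88943 library (limma, adjusted p = 0.0796 and 0.0620). Ankrd37, in the fit without a minimum, rose by 0.18 (limma, adjusted p = 5.246e-04), with 7.65 and 7.55 CPM in 88943, against 3.99 to 4.88 CPM.

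The sensors Egln3 and Egln1 rose in 88943, while Egln2, from a wider list, was not called (0.01; limma, adjusted p = 0.895). Egln3 had 145 and 148 CPM in 88943, against 89.2 to 108 CPM (median 96.7; 0.35 ± 0.04, SE; limma, adjusted p = 4.463e-07), and Egln1 144 and 148 CPM, against 109 to 123 CPM (0.17 ± 0.03, SE). Hif1a fell, with 361 and 382 CPM in 88943, against 366 to 445 CPM (median 413), and the groups overlapped (−0.26 ± 0.03, SE; limma, adjusted p = 3.595e-06). Higd1a and Car12 fell by 0.14 and 0.30, and Higd1a was not called with equal library totals (limma, adjusted p = 0.177). Epas1 had 0.123 and 0.0429 CPM in 88943, against 0 to 0.166 CPM.

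**Figure D3:**
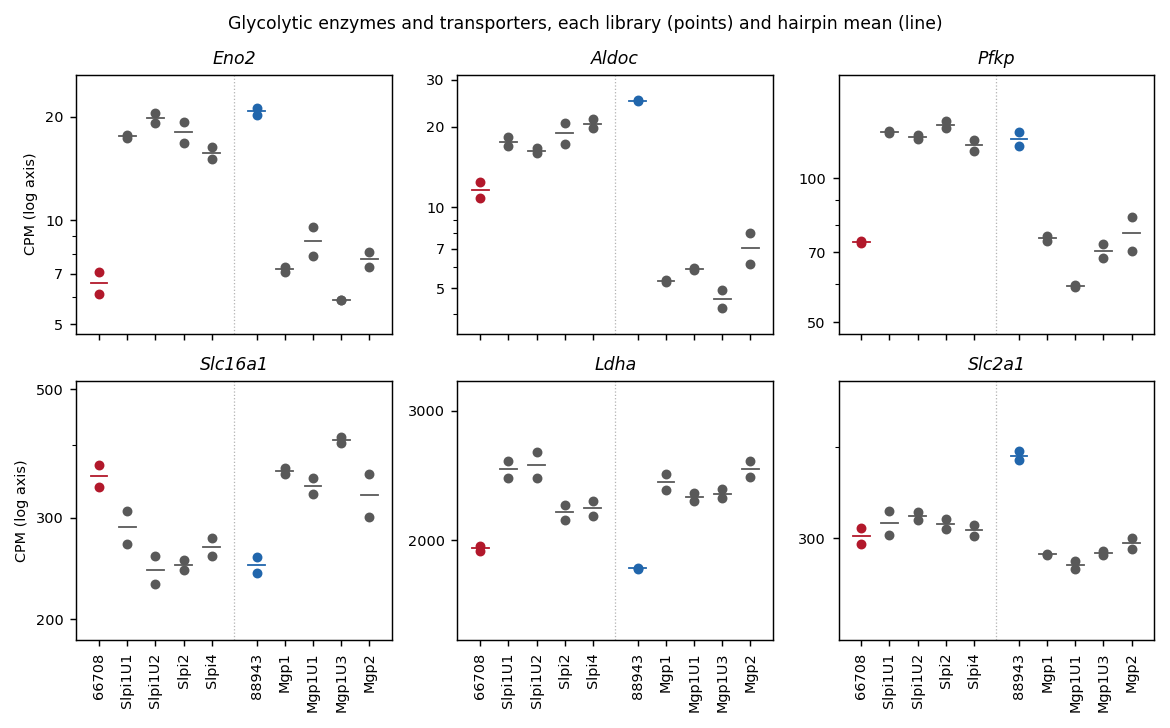
CPM on a log axis of 6 glycolytic genes in every library (points) of the 10 lines, with the mean of each line (short bar); TRC lines are in red (66708) and blue (88943), and a dotted line parts the tables. Eno2, Aldoc and Pfkp are low in 66708 and high in 88943 beside their own tables, Slc16a1 does the reverse, and Ldha is low in both.

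Aldoc had 25.1 CPM in both libraries of 88943, against 4.22 to 8.01 CPM in the shERWOOD libraries, a 4.00-fold difference (0.80 ± 0.03, SE). Eno2 had 20.2 and 21.2 CPM in 88943, against 5.86 to 9.59 CPM (median 7.33; 0.55 ± 0.03, SE; 2.56-fold). The shERWOOD levels of both were under the minimum, so both passed it only through 88943 and are given as descriptions. Pfkp had 117 and 125 CPM in 88943, against 59.1 to 82.9 CPM (median 71.7; 0.50 ± 0.04, SE). Slc2a1 rose by 0.29 ± 0.03 (SE; limma, adjusted p = 7.531e-07), with 395 and 384 CPM in 88943, against 272 to 300.1 CPM (median 285). Pfkm rose by 0.13, a call lost without the second 88943 library (limma, adjusted p = 0.0770).

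The transcripts of Ldha and Slc16a1, the 2 tested genes of lactate formation and export, fell in 88943, as did Pfkfb3. Of all genes tested 42.0% fell there. Ldha had 1830 and 1833 CPM in 88943, against 2260 to 2563 CPM (median 2342; −0.50 ± 0.04, SE; 1.43-fold, limma, adjusted p = 2.074e-08). Slc16a1 had 241 and 256 CPM in 88943, against 300.1 to 414 CPM (median 357; −0.60 ± 0.05, SE; 1.59-fold). Pfkfb3, which makes the activator of phosphofructokinase, had 14.6 and 13.7 CPM in 88943, against 19.0 to 26.6 CPM (−0.37 ± 0.04, SE). No library of 88943 overlapped the shERWOOD lines in these 3. Slc16a3, under the minimum, was not called in the fit without a minimum (0.06; limma, adjusted p = 0.118). Hk2 had 107 and 99.5 CPM in 88943, against 81.2 to 99.9 CPM, and was not called (0.03 ± 0.05, SE; limma, adjusted p = 0.550).

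The calls of Hk1, Gapdh, Pgk1 and Pkm as lower in 88943 (−0.10 to −0.21) rested on the scaling. With equal library totals none of the 4 was called (limma, adjusted p of 0.161 to 0.916), and with quantile normalization Pgk1 turned to 0.09, Pkm to 0.10 and Gapdh to 0.02. Pgam1 fell by 0.28, but its 750 and 777 CPM in 88943 overlapped the 716 to 962 CPM of the shERWOOD libraries. It was not called with quantile normalization (limma, adjusted p = 0.300). Without the second 88943 library Hk1, Gapdh and Pgk1 were not called (limma, adjusted p = 0.132, 0.391 and 0.175), nor was Pgk1 without the first (0.0738) or without the first Mgp1U1 library (0.0529).

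Set side by side, the 2 contrasts ran opposite for much of the HIF programme. They share no library. Of the 34 genes tested in both tables, 30 differed between the contrasts in a joint fit, where 70.5% of all genes did, so the members' share was somewhat above the background. By direction, 17 of the 34 were called in both contrasts with opposite signs, against 29.0% of all genes. Of these, 14 were lower in 66708 and higher in 88943, where 10.6% of all genes were so, and 3 (Pgam1, Slc16a1 and Hif1a) were higher in 66708 and lower in 88943, where 18.4% were. Without Eno2 and Aldoc, which were under the minimum in a group, 28 of 32 differed between the contrasts. Of these 32, 15 had opposite signs, 12 of them lower in 66708 and higher in 88943. Among genes outside glycolysis 11 of 16 fell in 66708 and rose in 88943. Ldha, Pgk1 and Car12 were the 3 members called lower in both, where 12.3% of all genes were called the same way in both. With hairpin means as samples 0 members were called the same way, and with library medians set equal, quantile normalization or equal library totals 2 were in each case.

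**Figure D4:**
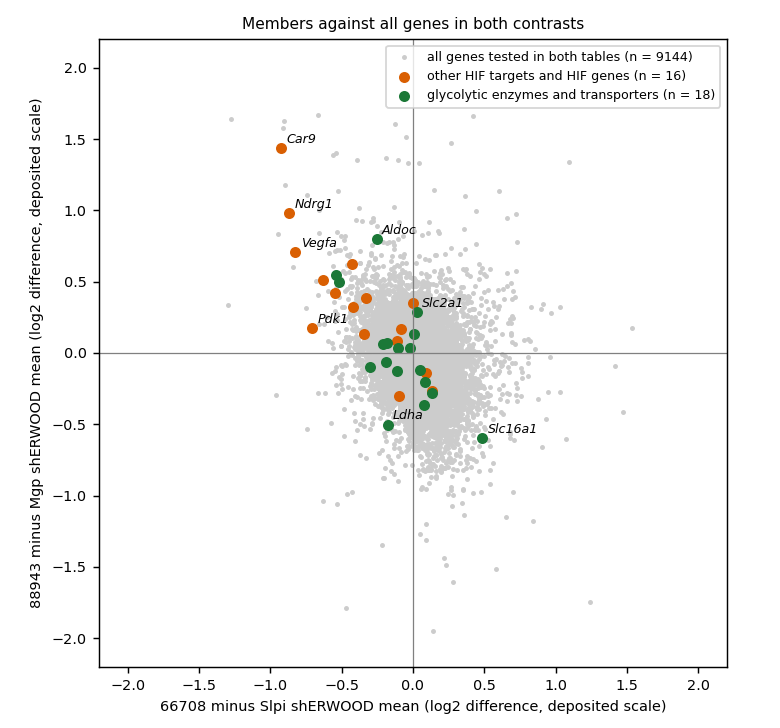
Log2 difference in 88943 (vertical axis) against that in 66708 (horizontal axis), each minus the mean of its 4 shERWOOD lines, for 9144 genes tested in both tables (grey), glycolytic genes (green) and other HIF genes (orange). Car9 lies at −0.92 and 1.43, Slc16a1 at 0.49 and −0.60, and Ldha at −0.18 and −0.50.

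Across the 34 genes Pearson's r of the 2 contrasts was −0.81, and across all 9144 genes it was −0.28. Genes are not independent replicates, so this is a description. It includes Eno2 and Aldoc, and no value without them is given. The gap between the contrasts was widest for Car9, at −2.36 ± 0.05 (66708 contrast minus 88943 contrast, SE; limma, adjusted p = 1.214e-17). Ndrg1 followed at −1.85 ± 0.04 (SE) and Vegfa at −1.53 ± 0.04 (SE). In the glycolytic class Slc16a1 was at 1.08 ± 0.08, Pfkp at −1.01 ± 0.05, and, as descriptions, Eno2 at −1.08 ± 0.05 and Aldoc at −1.05 ± 0.05 (SE). The genes that did not differ were Hk2, Gpi1, Aldoa and Gapdh (limma, adjusted p = 0.0831, 0.337, 0.106 and 0.842). With equal library totals these 4 did differ (limma, adjusted p of 7.63e-05 to 0.0165), while Hk1, Pkm, Ldha, Car12 and Higd1a no longer did (0.112 to 0.982).

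The group lower in 66708 and higher in 88943 numbered 14 with voom on recovered reads, 17 with library medians set equal, 19 with equal library totals and 20 with quantile normalization. In the last 3 settings Kdm3a, Pfkl and Tpi1 were among the genes that joined. With hairpin means as samples Egln1 and P4ha1 dropped out. All these counts include Eno2 and Aldoc, which were under the minimum in a group. Opposite signs in either direction were called for 30.0%, 28.3%, 28.3% and 26.7% of all genes in the order of the 4 counts. The share for this direction alone is not given. The reverse group of 3 numbered 4, 2, 1 and 1 in that order, and it was smaller with hairpin means as samples too. Marker levels moved with both contrasts. The 8 carcinoma markers summed to 2347 and 2299 CPM in 66708, against 2023 to 2172 CPM in its shERWOOD libraries, and to 2647 and 2640 CPM in 88943, against 1559 to 1744 CPM. The 10 markers of other cells summed to 46.5 and 45.9 CPM in 66708, against 48.8 to 59.4 CPM, and to 65.7 and 63.3 CPM in 88943, against 30.4 to 39.8 CPM, mostly Pdgfra; Emr1 was at 0 in all Mgp-table libraries. Their part in the results was not tested.

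Some members also differed among the shERWOOD lines. Between the 4 Slpi-directed lines 4 of 35 members differed by limma's moderated F test, where 7.55% of all genes did, and none was glycolytic. Ndrg1 averaged 301, 318, 399 and 312 CPM in Slpi1U1, Slpi1U2, Slpi2 and Slpi4 (limma F test, adjusted p = 2.793e-04). Vegfa averaged 40.8, 51.2, 57.5 and 42.6 CPM in the same order (adjusted p = 3.623e-04). Car9 (adjusted p = 0.0145) and P4ha2 (0.0239) were the others, and Slpi2 was highest in Ndrg1, Vegfa and Car9. In each of the 4 genes every shERWOOD library stayed above both 66708 libraries. The count was 7 without the second Slpi1U1 library and 2 without either Slpi2 or either Slpi4 library.

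Between the 4 Mgp-directed lines 13 of 34 members differed by the same test, where 29.4% of all genes did. They were 9 glycolytic genes (Pfkl, Pfkm, Pfkp, Aldoa, Aldoc, Tpi1, Pgam1, Eno2 and Slc16a1) and Hif1a, Car9, Mxi1 and Kdm3a. Aldoc and Eno2 were under the minimum in these 4 lines and entered the test only through 88943, so their part in the count is a description. Slc16a1 averaged 361, 340, 408 and 328 CPM in Mgp1, Mgp1U1, Mgp1U3 and Mgp2 (limma F test, adjusted p = 0.00559). Tpi1 averaged 257, 264, 242 and 299 CPM (0.00248) and Pgam1 882, 945, 860 and 731 CPM (0.0028) in that order. Mgp1U3 thus had the most Slc16a1 and the least Tpi1, and Mgp2 the most Tpi1 and the least of both Pgam1 and Slc16a1. The count was 7 without the second Mgp1 or the second Mgp1U1 library and 8 without the second Mgp1U3 library.

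The shERWOOD lines of the 2 tables also differed in level. The tables were normalized separately, so CPM were compared without a test. In 22 of the 34 genes all 4 Slpi-directed lines lay above all 4 Mgp-directed lines, against 29.2% of all genes, and in 3 (Pfkfb3, Pkm and Slc16a1) all lay below, against 16.8%. Car9 averaged 116 ± 10.4 CPM in the Slpi-directed and 35.9 ± 4.14 CPM in the Mgp-directed lines (SD, n = 4 lines each). Aldoc averaged 18.4 ± 1.85 CPM in the Slpi-directed and 5.71 ± 1.06 CPM in the Mgp-directed lines (SD, n = 4 each), and Bnip3 75.7 ± 1.04 and 36.2 ± 2.25 CPM in the same order. Slc16a1 averaged 262 ± 20.6 CPM in the Slpi-directed and 360 ± 35.2 CPM in the Mgp-directed lines. These are the levels each TRC line was set against.

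Ranked by CPM over the 10 lines, Vegfa was highest in 88943 (62.5 CPM), then in the Slpi-directed lines (40.8 to 57.5), the Mgp-directed lines (24.5 to 26.7) and 66708 (16.5). For Ndrg1 the order was the same, at 475 CPM in 88943, 301 to 399 in the Slpi-directed lines, 191 to 211 in the Mgp-directed lines and 158 in 66708. Car9 differed in the low end, with 154 CPM in 88943, 103 to 129 in the Slpi-directed lines, 46.5 in 66708 and 31.3 to 40.5 in the Mgp-directed lines. Pdk1 was highest in the Slpi-directed lines (123 to 133 CPM), then in 88943 (111), the Mgp-directed lines (85.0 to 88.2) and 66708 (65.1).

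Other genes of the pathway were read from 3 wider lists. Of 14 genes of HIF control, 12 were tested. In 66708 4 rose (Rbx1 by 0.39, Egln2 by 0.23, Tceb2 by 0.23 and Arnt by 0.16) and Siah2, a ligase that degrades the sensors, fell by 0.15. The rises were near the 32.1% of all genes that rose in 66708. Rbx1 and Tceb2 are subunits of the von Hippel-Lindau ligase complex, Egln2 is a further sensor, and Arnt is the partner of the alpha subunits. In 88943 6 fell, among them the ligase subunits Cul2 by 0.42, Tceb1 by 0.36 and Rbx1 by 0.33, and Siah2 alone rose, by 0.36; 42.0% of all genes fell and 28.7% rose there. Vhl itself was not called in either contrast, at 0.07 in 66708 and −0.0012 in 88943.

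Of 37 further hypoxia-induced genes 27 were tested, and 13 fell and 5 rose in 66708, while 13 rose and 12 fell in 88943. These counts include Ankzf1 and Pdgfb, called higher in 88943, whose levels in the Mgp-directed lines were under the minimum. They also include Ankzf1 as called lower in 66708, where its 66708 level was under it. Each passed the minimum there only through the group where it was high. Of all genes 23.6% fell and 32.1% rose in 66708, and 28.7% rose and 42.0% fell in 88943, so the falls in 88943 were near the background. The transferrin receptor Tfrc rose by 0.65 in 66708 and fell by 1.15 in 88943. Stanniocalcin Stc2 fell by 0.53 in 66708 and rose by 1.13 in 88943, and Bhlhe40, a repressor of the circadian clock, fell by 0.13 and rose by 0.76 in the same order. Plod2, a collagen lysyl hydroxylase, fell by 0.36 in 66708 and was not called in 88943 (−0.05). Ddit4, an inhibitor of growth signalling, rose by 1.61 in 88943, and its 88943 libraries held 86.2 to 96.7 CPM, against 8.77 to 25.6 CPM. In 66708 Ddit4 was not called (−0.13). The adenylate kinase Ak4 fell in both, by 0.28 in 66708 and by 0.50 in 88943.

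In the list of 36 genes around pyruvate and the side branches of glycolysis 21 were tested, and 12 rose and 2 fell in 66708, while 4 rose and 11 fell in 88943. Against those same all-gene shares the list had more rises in 66708, and its falls in 88943 were not far from the background. Pdp2, the phosphatase that switches pyruvate dehydrogenase back on, rose by 0.45 in 66708 and fell by 0.29 in 88943. Pgd, of the oxidative pentose phosphate branch, rose by 0.42 in 66708 and fell by 0.42 in 88943. Gpd1l rose by 0.38 and the muscle-type enolase Eno3 fell by 0.34 in 66708. Dld, a subunit of pyruvate dehydrogenase, fell by 0.34 and the pentose isomerase Rpia rose by 0.28 in 88943. Pdk1, a member, and Pdp2, its enzymatic opponent, therefore moved in opposite directions in each contrast.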

How the data were processed

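RNA from infected 4T1 cells was sequenced, and per the submitters' processing notes the tools named are Bowtie2, HTSeq and DESeq, with the mouse build mm10; no settings are stated there. The authors deposited a table for the Slpi and one for the Mgp hairpins, with variance-stabilized values on a log2-like scale, scaled within each table. Inverting that transformation gave whole reads for 100% of values within 0.001, and CPM and scaled reads come from those. The labels list 40 samples, 4 per hairpin, while 20 columns were deposited, 2 per hairpin, so columns were tied to hairpins and not to samples.

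A model with 1 mean per hairpin was fitted in each table with limma 3.58.1 (R 4.3.3, intensity trend) to genes averaging at least 1 unit above the table's smallest value (120.7 scaled reads for Slpi, 139.4 for Mgp). Contrasts were a TRC hairpin minus the mean of 4 shERWOOD hairpins, an F test among these 4, and, in a joint fit of genes tested in both, the difference of the contrasts. The tests were two-sided and were tested on simulated data, and p-values were adjusted by Benjamini-Hochberg across every gene in the fit. The labels do not tie the 2 libraries of a line to separate cultures: p-values reflect the scatter of these libraries alone, and that scatter may be technical. Replicates were not duplicates of each other (chi-square per degree of freedom 1.57 to 12.1).

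The alternatives were voom on recovered reads, other minimums, other scalings, hairpin means as samples, a replicate block and each library left out; equal library totals were added after seeing the data. The members and lists were chosen with earlier results of these data known. Named genes are the 6 called members per class and contrast with the largest differences, a fixed few members, and up to 4 called genes per wider list. Vhl, Siah2 in 66708, Bhlhe40 in 66708, Ankzf1, Pdgfb and the enolase and aldolase copies fall outside that rule. They were named after their values were seen. Exon lengths come from the mouse annotation supplied, on GRCm38.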

Additional observations from a re-analysis of the deposited data

Results flagged for a closer look

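For 17 of the genes both contrasts were called with opposite signs and the difference between them passed the joint test in limma. The values are the 66708 contrast minus the 88943 contrast on the deposited log2 scale. Among HIF targets outside glycolysis it was −2.36 for Car9, −1.85 for Ndrg1, −1.53 for Vegfa, −1.14 for Mxi1 and −1.05 for Ero1l. Bnip3 was at −0.97, Pdk1 at −0.88, P4ha2 at −0.75, Bnip3l at −0.71 and P4ha1 at −0.48. The HIF subunit Hif1a was at 0.40 and the sensor Egln1 at −0.26.

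In glycolysis Pfkp was at −1.01. Eno2 at −1.08 and Aldoc at −1.05 passed the minimum only through the group where they were high (Eno2 in both contrasts, Aldoc in 88943), so their values are descriptions. Slc16a1 at 1.08 and Pgam1 at 0.41 ran the other way. Pgam1 overlapped the shERWOOD range in both contrasts, and its gap was not called with quantile normalization (limma, adjusted p = 0.191). The marker and scaling values that moved with the contrasts are given with the results, and their part was not tested.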

How the results depend on the processing

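Several counts moved by over 1.5 times. Among the Slpi-directed lines 2 members differed without a minimum and 2 with a minimum of 3 units, and among the Mgp-directed lines 7 and 8. Members higher in 66708 numbered 1 with quantile normalization, 1 with equal library totals and 1 with hairpin means as samples. Members lower in 88943 numbered 6, 6 and 5 under the same settings in that order. With a minimum of 3 units, where fewer genes were tested, 7 were higher in 88943 and 17 differed between the contrasts. With hairpin means as samples glycolytic genes lower in 88943 numbered 3, members higher in 66708 and lower in 88943 numbered 1, and members called the same way in both contrasts numbered 0.

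Leaving out each library in turn gave 1 to 5 members higher and 18 to 23 lower in 66708, 14 to 19 higher and 8 to 12 lower in 88943, and 27 to 32 that differed between the contrasts. It gave 2 to 7 among the Slpi-directed and 7 to 19 among the Mgp-directed lines. The count higher in 66708 was 1 without the second 66708 library and 5 without the second Slpi1U1 library.

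Signs of uncalled differences turned under at least 1 setting for 6 members in 66708 (Egln3, Gpi1, Hk1, Pfkm, Pkm and Slc2a1), for 3 in 88943 (Aldoa, Gpi1 and Hk2) and for Gapdh between the contrasts. Of called ones, Gapdh, Pgk1 and Pkm turned in 88943, to at most 0.10, and Pkm turned between the contrasts, to −0.11; the cause was not tested. Slc2a1 in 66708 was −0.0403 with quantile normalization and −0.0541 with equal library totals, and from −0.0100 to 0.0658 with each library left out. Over the same leave-outs Egln3 in 66708 ranged from −0.0216 to 0.0196 and Hk2 in 88943 from −0.0075 to 0.0758.

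Replicate numbers were shared across lines, and same-numbered libraries deviated together in some pairs but not in others. The correlation was over 0.1 in 3 of 10 pairs of the Slpi table (−0.526 to 0.55). In the Mgp table it was over 0.1 in 4 of 10 pairs (−0.167 to 0.285). With a replicate block 3 members were higher and 21 lower in 66708, and 18 were higher and 11 lower in 88943; Hk2 in 66708 was no longer called (limma, adjusted p = 0.0551) and Kdm3a in 88943 was (0.0493). Genes under the minimum are limited by depth.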
